A study of Mus musculus with 2 samples.

Results

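The 33 genes described here are listed as immediate early genes, a group whose typical members start transcription within minutes of a stimulus without new protein synthesis. That does not hold to the same degree for each of them. They were taken by symbol from the gene list shared by both libraries, and all 33 were found among its 32285 genes. They comprise the AP-1 subunits and partners Fos, Fosb, Fosl1, Fosl2, Jun, Junb, Jund, Atf3 and Maff, the zinc finger factors Egr1, Egr2, Egr3, Klf2, Klf4 and Klf6, the orphan nuclear receptors Nr4a1, Nr4a2 and Nr4a3, the factors Myc and Csrnp1, the phosphatases Dusp1, Dusp2, Dusp5 and Dusp6, and the feedback and stress genes Zfp36, Socs3, Btg2, Gadd45b, Gadd45g, Ier2, Ier3, Ier5 and Rhob.

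The study profiled single cells of the mouse anterior eye segment, with the iris removed, in 2 libraries made with droplet 3′ chemistry that counts unique molecular identifiers (UMIs). The NC-Foxc2-/- library came from mice with both Foxc2 alleles floxed and a Wnt1-Cre transgene, which deletes Foxc2 in neural crest (NC) lineage cells and leaves the gene intact in other lineages. The control library came from Cre-negative Foxc2 flox/flox mice, so both groups carried the floxed alleles. Each library was 1 pool of eyes from 4 to 6 mice of mixed strain, labelled as 4 weeks old and given as 3 to 4 weeks old in the methods, and the NC-Foxc2-/- pool was made from mice with moderate eye phenotypes only. Both pools were digested with collagenase for 2 h and with trypsin for 25 min at 37 °C in the presence of a ROCK inhibitor, and warm digestion is itself known to induce immediate early genes. With 1 library per group there is no replicate check, and every interval given covers counting error only, so differences in handling and between mice cannot be told apart from genotype.

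Immediate early factors are switched on by pre-existing regulators such as SRF with its ETS-family partners and CREB, and the AP-1 and EGR proteins they encode then bind promoters and enhancers of later genes. The same burst contains its own brakes: DUSP proteins dephosphorylate MAP kinases, SOCS3 dampens cytokine signalling, and ZFP36 (tristetraprolin) promotes decay of short-lived mRNAs with AU-rich elements. In vascular and outflow tissues the group is known for its response to stretch and shear stress, with KLF2 and KLF4 as flow-induced factors of endothelium.

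After removal of barcodes with over 8% mitochondrial UMIs, 10872 NC-Foxc2-/- and 10773 control cells were kept, with a median of 6517 and 7663 UMIs per cell. Cells were compared in 22 classes with at least 20 cells in each library, 7 of them joined from the study's own cell lists and the rest rebuilt by clustering without the 33 genes. Foxc2 itself was listed at 6.58 CPM (UMIs per 1000000 UMIs of the same cells) in NC-Foxc2-/- cells and 13.0 CPM in control cells, and at 0.670 and 46.7 CPM in fibroblasts, whereas in keratocyte-like cells it was at 10.2 and 4.30 CPM. Both libraries shared 52 barcodes. Doublets were called in 4.77% of NC-Foxc2-/- and 3.81% of control cells. Their share was 25.5% and 30.6% in limbal epithelial-like cells, 21.0% and 19.7% in cluster 4, and 17.6% and 8.87% in cluster 14. The long nuclear RNA Malat1 was higher in NC-Foxc2-/- in all 22 classes, with ratios of 1.24 to 2.71.

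The bases before the start site of 3 members are shown because these genes carry the main patterns below, Zfp36 as the member that was higher in every class tested, Fos and Dusp2 as members that were higher in some classes and lower in others. Sequences are from RefSeq on GRCm38.p6 and run 5′ to 3′ on the gene's strand, from 250 bases before the start. Capitals mark the matches found, which are GCGGGGGCG (an EGR consensus) and the CArG box bound by SRF in Zfp36, TATAAA in Fos, and GCGGGGGCG in Dusp2.
Zfp36, minus strand, chr7:28379229-28379478: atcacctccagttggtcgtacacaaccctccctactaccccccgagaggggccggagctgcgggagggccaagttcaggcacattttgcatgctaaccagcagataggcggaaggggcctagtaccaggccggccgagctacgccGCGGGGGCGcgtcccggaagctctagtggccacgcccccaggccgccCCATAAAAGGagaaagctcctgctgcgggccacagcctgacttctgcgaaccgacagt
Fos, plus strand, chr12:85473640-85473889: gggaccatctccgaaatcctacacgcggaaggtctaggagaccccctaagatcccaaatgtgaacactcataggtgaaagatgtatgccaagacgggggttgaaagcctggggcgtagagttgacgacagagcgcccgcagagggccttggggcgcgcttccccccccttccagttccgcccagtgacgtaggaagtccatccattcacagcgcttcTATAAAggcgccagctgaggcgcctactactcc
Dusp2, plus strand, chr2:127335909-127336158: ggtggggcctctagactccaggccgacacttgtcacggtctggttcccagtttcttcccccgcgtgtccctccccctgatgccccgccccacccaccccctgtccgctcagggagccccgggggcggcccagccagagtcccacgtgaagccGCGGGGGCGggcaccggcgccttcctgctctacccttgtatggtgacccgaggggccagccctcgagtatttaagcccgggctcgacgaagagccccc

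The table of promoters held 28 of the 33 members. In windows of 250 bases before to 50 after the start, searched on both strands, GCGGGGGCG was found in 8 members (Fosb, Fosl2, Nr4a1, Dusp2, Klf2, Klf4, Zfp36 and Socs3) and in 3.31% of all 27025 genes with a promoter. The CArG box was found in 3 members, Egr2, Dusp5 and Zfp36, and in 1.81% of genes. The cAMP response element TGACGTCA was found in 3 members, Dusp1, Btg2 and Maff, and in 2.03% of genes, and TATAAA was found in 5 members, Fos, Junb, Nr4a2, Gadd45b and Gadd45g, and in 15.7% of genes. TGACGCAA was found in Fosb, in 0.562% of genes, and GCGTGGGCG was found in Maff, in 0.707% of genes. The AP-1 site TGAGTCA or its reverse complement TGACTCA was found in Csrnp1 and in 5.95% of genes. A match is a description of these letters and of nothing more.

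Together the 33 genes made up 1.11% of UMIs in NC-Foxc2-/- cells and 1.23% in control cells. Summed over the genes, the level was lower in NC-Foxc2-/- in 15 of 22 classes and higher in 7, with a median ratio of 0.904. The trabecular meshwork (TM) held the highest summed level, at 28174.9 CPM in NC-Foxc2-/- and 33180.3 CPM in control TM-1 cells, a ratio of 0.849 (95% interval 0.842 to 0.857). TM-3 cells were lower at 14950.2 CPM in NC-Foxc2-/- and 21176.7 CPM in control, a ratio of 0.706 (interval 0.7004 to 0.7116), and uveal meshwork cells were at a ratio of 0.757. TM-2 cells stood close to 1, at a ratio of 0.972 (0.953 to 0.991). The meshwork clusters thus did not move by one common factor, and their intervals did not overlap with each other.

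Among the other classes of NC origin, fibroblasts were at 13832.7 CPM in NC-Foxc2-/- and 12946.9 CPM in control, a ratio of 1.07. Keratocyte-like cells of the corneal stroma were at 1.01. Pericyte-like cells were at 0.831, Schwann cell-like cells at 0.859 and smooth muscle-like cells at 0.935. Over the 9 classes of NC origin the median summed ratio was 0.859, with 2 classes above 1. Over the 9 classes of other origin it was 0.867, also with 2 classes above 1. No test was applied to these medians, and the grouping by origin did not match the measured Foxc2 level in every class. Foxc2 was at 3.55 CPM in NC-Foxc2-/- and 14.52 CPM in control blood ECs, a class of other origin, from 5 and 20 UMIs (ratio 0.245, 0.0718 to 0.672). In SC and lymphatic ECs its ratio of 0.377 came from 3 and 36 UMIs, with an interval of 0.0743 to 1.19 that spans 1.

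Classes of other origin covered the whole range. Endothelial cells (ECs) of Schlemm's canal (SC) and lymphatic vessels had the lowest ratio of all classes, 0.531 (0.506 to 0.557), with 10178.1 CPM in NC-Foxc2-/- and 19155.1 CPM in control, whereas blood ECs were at 17284.9 and 18191.1 CPM, a ratio of 0.9502 (0.934 to 0.967). The median of the single members' ratios was 0.577 in SC and lymphatic ECs and 0.999 in blood ECs. The macrophage-like clusters 9 and 18 were at 0.849 and 0.736, and lymphoid-like cells at 0.804. The collagen gene Col1a1, at 58637.4 CPM in NC-Foxc2-/- and 58702.1 CPM in control keratocyte-like cells, was counted in other classes too. It was at 11045.1 and 5173 CPM in lymphoid-like cells, and at 9674 and 9820 CPM in macrophage-like cluster 9. In rod-like cells it was at 27439.2 and 9992 CPM. The part of such RNA in the members' ratios was not tested. Corneal, limbal and conjunctival epithelial-like cells were at 0.867, 0.919 and 1.04. Erythrocyte-like cells, which carry little nuclear transcription, held 180.8 CPM in NC-Foxc2-/- and 174.8 CPM in control, a ratio of 1.04 with an interval of 0.917 to 1.17 that spans 1. Haemoglobin made up 94.7% of UMIs there in NC-Foxc2-/- and 95.6% in control. These UMIs are part of the CPM total, so the level cannot be set against that of other classes. The highest ratios belonged to classes without an assigned origin, at 1.41 in cluster 19, 1.18 in rod-like cells and 1.15 in cluster 14. Rod-like cells and cluster 14 did not keep that direction. The ratio was 0.764 in rod-like cells at a cluster resolution of 0.4, and in cluster 14 it was below 1 under 4 of 13 alternatives, down to 0.848.

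**Figure D1:**
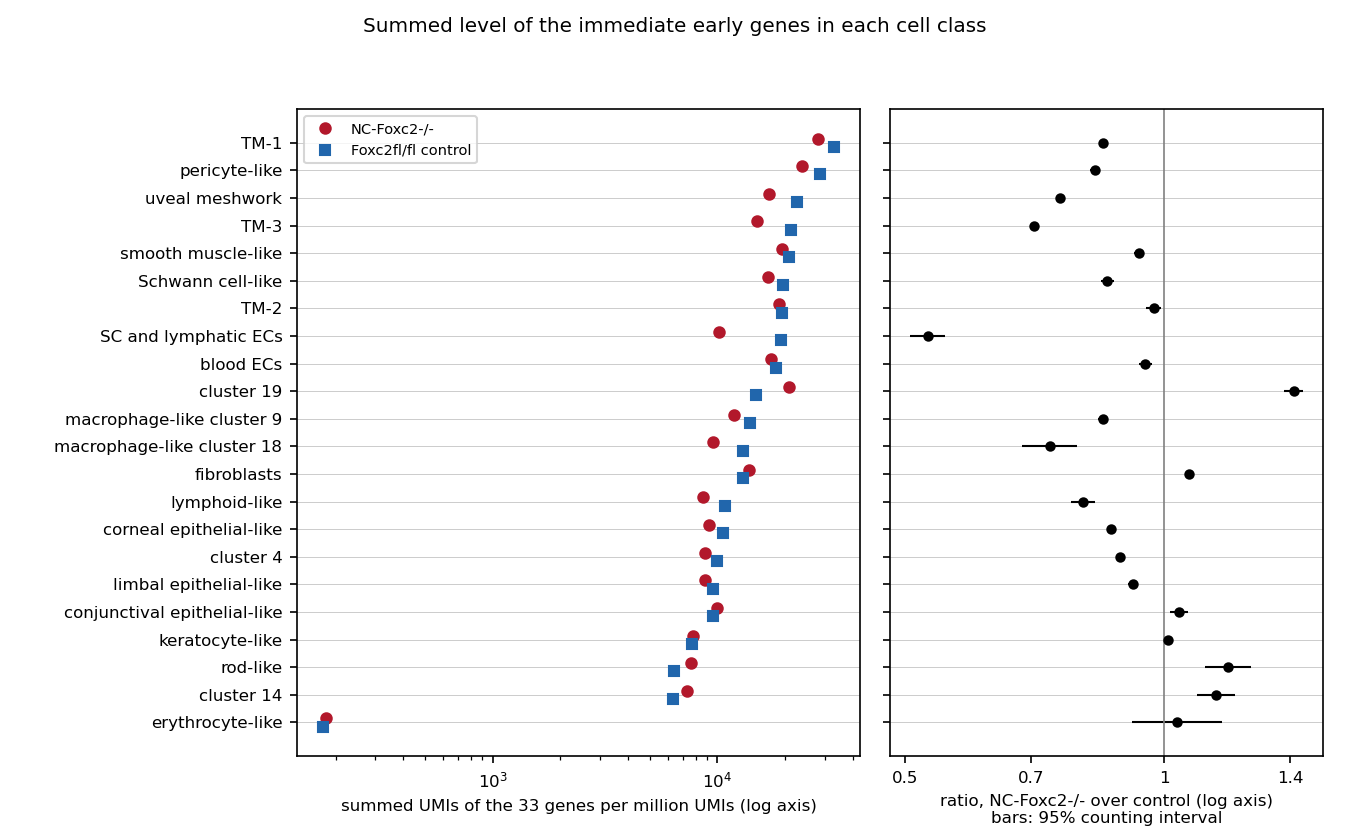
Summed level of the 33 genes in each class, in CPM on a log axis (left; circles NC-Foxc2-/-, squares control), and the ratio NC-Foxc2-/- over control with its 95% counting interval (right, log axis). TM-1 has the highest level in both libraries, and SC and lymphatic ECs have the lowest ratio, 0.531.

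Per cell, the share of UMIs from the 33 genes varied widely within a class. The median TM-3 cell carried 1.31% in NC-Foxc2-/- and 1.89% in control, and the 10th and 90th percentiles were 0.570% and 2.59% in NC-Foxc2-/- cells, against 0.772% and 3.72% in control cells. In TM-1 the medians were 2.09% in NC-Foxc2-/- and 2.83% in control. The distributions thus overlapped over most of their range, and the whole TM-3 distribution was displaced rather than its upper end alone. In fibroblasts the medians were 1.15% and 1.18%, while the summed level was higher in NC-Foxc2-/-, where the 90th percentile was 2.64% against 2.19% in control.

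**Figure D2:**
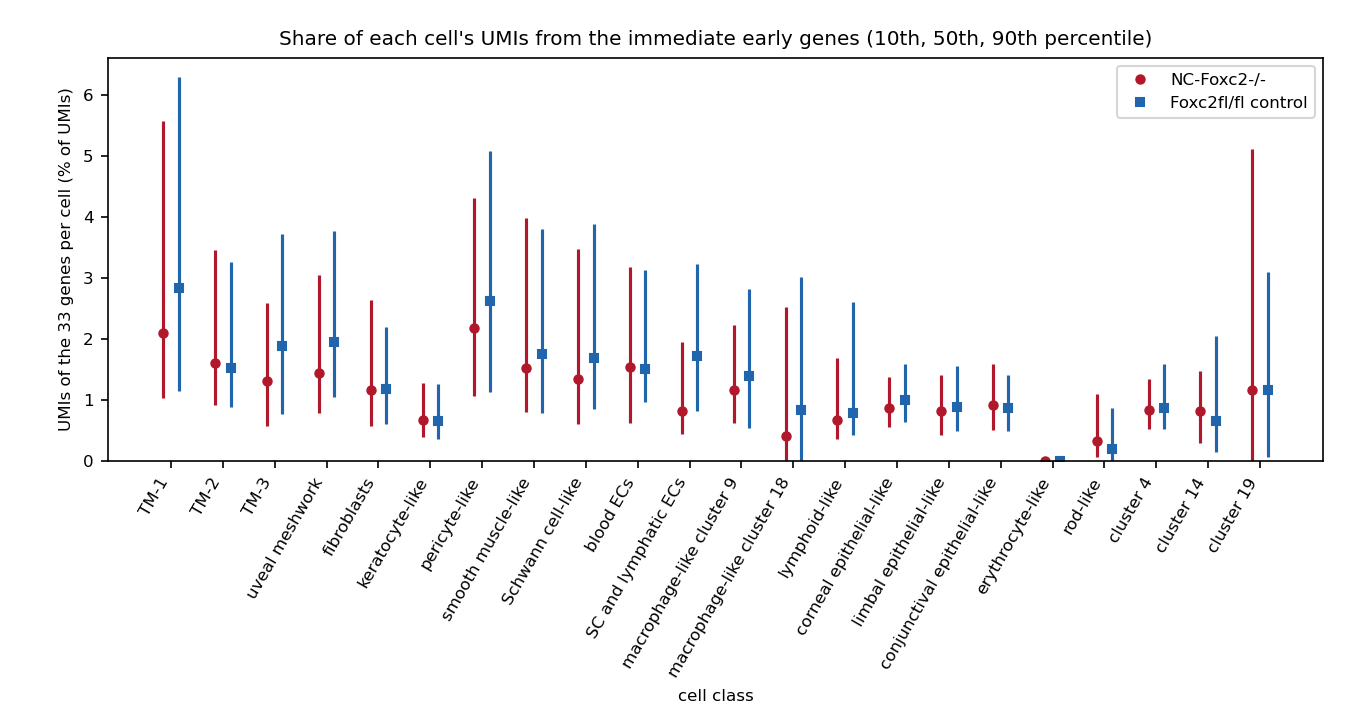
Share of each cell's UMIs that came from the 33 genes, in percent, by class, with NC-Foxc2-/- to the left of control. Points are medians and bars run from the 10th to the 90th percentile over cells, which are not replicates. TM-3 medians are 1.31% and 1.89%.

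Of 726 pairs of a member and a class, 648 had at least 50 UMIs over both libraries. A pair was called once its CPM ratio reached 2 or was no more than 0.5. By this rule 38 pairs were higher in NC-Foxc2-/-, 5.86% of those measured, against 3.49% over all genes in the same classes, and 27 were lower, 4.17% against 3.99% over all genes. The members' shares were near those of all genes, so the counts are no result about the group as such. The 95% interval lay above 1 in 219 pairs, below 1 in 250, and spanned 1 in 179. The members differed from each other, and are described below by role. Levels over all cells also depend on the mix of classes, which differed between the libraries. Keratocyte-like cells were 20.5% of kept NC-Foxc2-/- cells and 13.5% of control cells, and conjunctival epithelial-like cells 0.313% and 4.79%. Nr4a2 had a ratio of 1.06 over all cells but a median of 0.743 over classes, and Dusp5 had 0.695 and 1.07.

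**Figure D3:**
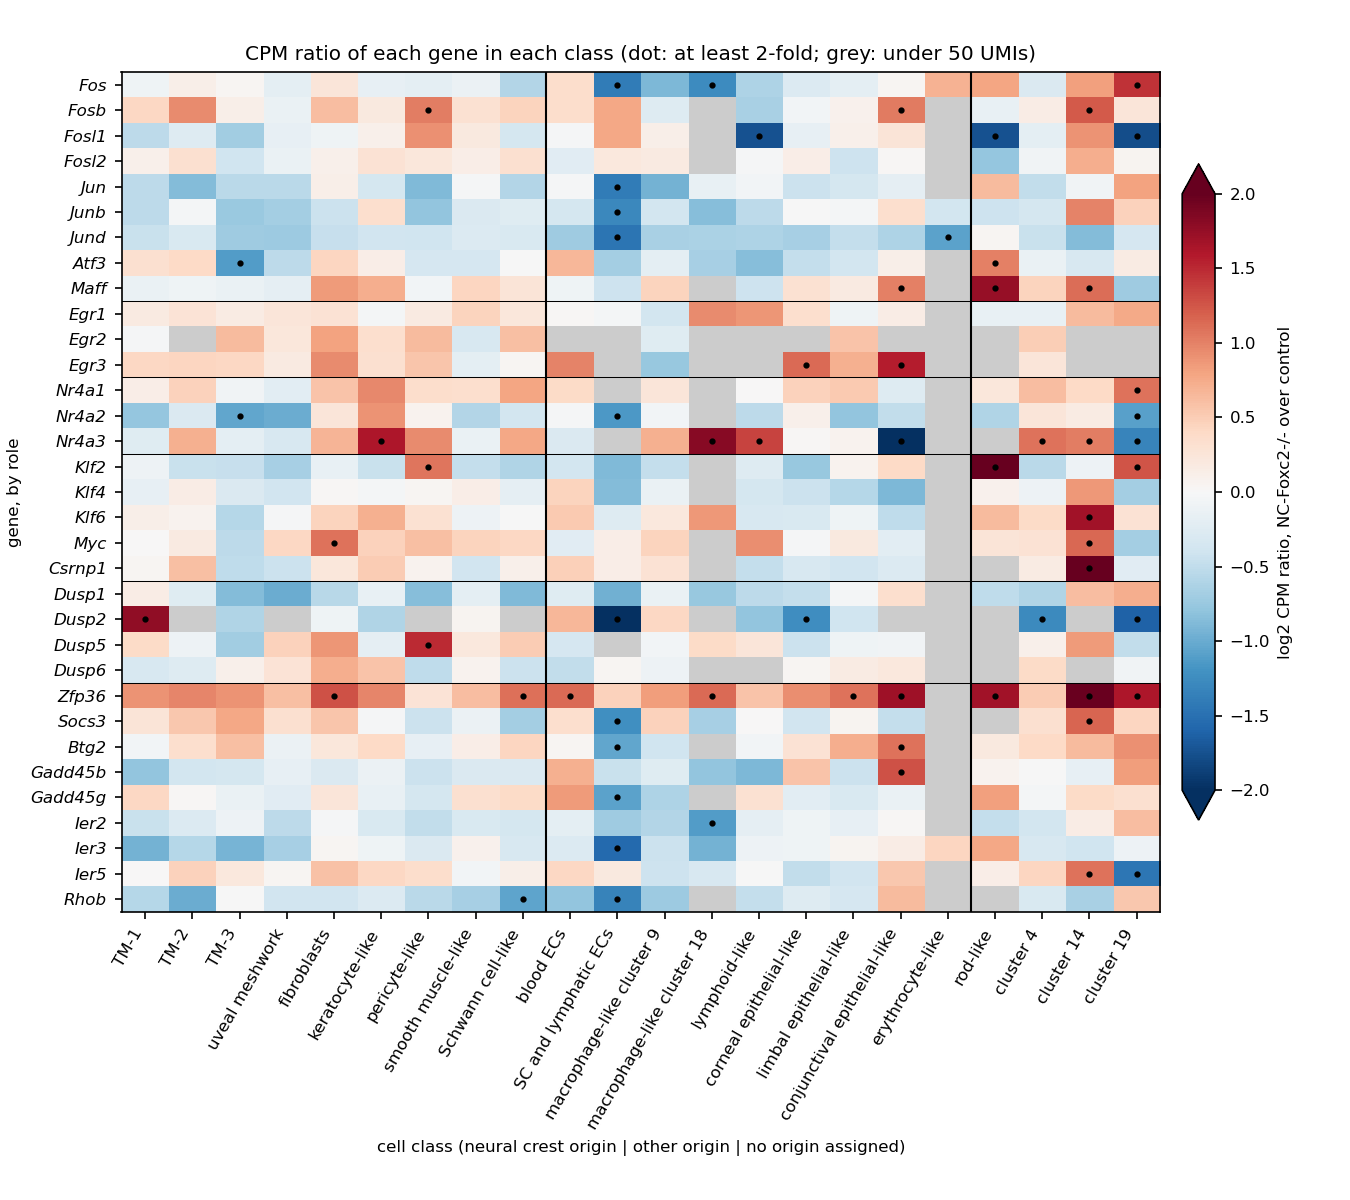
CPM ratio NC-Foxc2-/- over control on a log2 colour scale for each gene (rows, by role) in each class (columns, by origin). Dots mark a ratio of at least 2 or at most 0.5, and grey cells had under 50 UMIs. The Zfp36 row is above 1 in all 21 classes shown, and the Jund row is below 1 in 21 of 22.

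The JUN proteins are the AP-1 subunits that can dimerise with themselves as well as with FOS proteins. Jund was at 1025 CPM in NC-Foxc2-/- and 1375 CPM in control over all cells. Its interval lay below 1 in 21 of 22 classes, with a median ratio of 0.687, and rod-like cells were the exception at 1.03 (0.854 to 1.24). It stood at 1186 CPM in NC-Foxc2-/- and 1939 CPM in control TM-3 cells, a ratio of 0.612 (0.595 to 0.629). In uveal meshwork it was at 1622 CPM in NC-Foxc2-/- and 2684 CPM in control, and in keratocyte-like cells at 947 and 1235 CPM. Jund passed 0.5 in 2 classes, SC and lymphatic ECs and erythrocyte-like cells, where the levels were 26.3 CPM in NC-Foxc2-/- and 55.3 CPM in control. A shift of this breadth, with the interval below 1 in at least 80% of the classes measured, was seen in 3.12% of 4842 genes measured in at least 15 classes. The median ratio of Jund exceeded that of 4.13% of these genes. Actb and Gapdh, which encode a cytoskeletal actin and a glycolytic enzyme used in most cells, also had their interval below 1 in 21 of 22 classes, with median ratios of 0.637 and 0.558.

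The other JUN genes were lower in most classes but not all. Junb, a JUN protein that often opposes c-JUN, was at 984 CPM in NC-Foxc2-/- and 1274 CPM in control over all cells, with the interval below 1 in 14 of 22 classes and above 1 in 4. In TM-1, its highest class, it was at 4301 CPM in NC-Foxc2-/- and 6213 CPM in control, whereas in keratocyte-like cells its ratio was 1.26. Jun was at 545 CPM in NC-Foxc2-/- and 852 CPM in control, below 1 in 13 of 21 classes and above 1 in 3. It was at 1975 CPM in NC-Foxc2-/- and 2970 CPM in control Schwann cell-like cells, and at a ratio of 1.75 in cluster 19. Summed, the JUN family was lower in 20 of 22 classes by its interval and higher in 1. The share of Jund in these UMIs was 58.2% in NC-Foxc2-/- and 63.8% in control keratocyte-like cells, and 29.1% and 36.2% in blood ECs, but 31.0% and 25.3% in pericyte-like cells (Wilson intervals did not overlap). In TM-3 the Jund share was 36.2% in NC-Foxc2-/- and 36.7% in control, and in SC and lymphatic ECs 31.6% and 33.3%, with overlapping intervals. The family therefore did not change as a block in every class.

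The FOS proteins bind DNA only as partners of JUN proteins. Fos itself was at 498 CPM in NC-Foxc2-/- and 563 CPM in control over all cells, and its ratio ran from 0.379 in SC and lymphatic ECs to 2.74 in cluster 19. In TM-1, where it was highest, it was at 2348 CPM in NC-Foxc2-/- and 2491 CPM in control. In TM-3 it was at 600 and 586 CPM, a ratio of 1.02 (0.979 to 1.07) that spans 1, in contrast to Jund in the same cells. Fosb, a close FOS relative, was at 395 CPM in NC-Foxc2-/- and 283 CPM in control, with the interval above 1 in 14 of 20 classes and below 1 in 3. It reached 1523 CPM in NC-Foxc2-/- and 1144 CPM in control TM-1 cells. Fosl2 was at 189 CPM in NC-Foxc2-/- and 186 CPM in control, with no class past the fold. Fosl1, which encodes FRA-1 and lacks the strong activation domain of FOS, was at 160 CPM in NC-Foxc2-/- and 212 CPM in control, and had ratios of 0.292 in cluster 19 and 0.298 in both rod-like and lymphoid-like cells.

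Atf3, a stress-induced factor that pairs with JUN proteins, was at 335 CPM in NC-Foxc2-/- and 443 CPM in control. In TM-3 it was past the fold, at 541 CPM in NC-Foxc2-/- and 1171 CPM in control, a ratio of 0.461 (0.444 to 0.480). Fibroblasts and TM-2 lay on the other side, at 1.35 and 1.32. Maff, a small MAF protein without an activation domain, was at 342 CPM in NC-Foxc2-/- and 257 CPM in control, with the interval above 1 in 11 of 20 classes.

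The EGR zinc finger factors bind GC-rich promoter sites and leaned the other way from the JUN genes. Egr1 was at 355 CPM in NC-Foxc2-/- and 293 CPM in control, with the interval above 1 in 13 of 21 classes, below 1 in 2, and no class past the fold. In TM-1 it was at 1566 CPM in NC-Foxc2-/- and 1378 CPM in control. Egr2, a regulator of Schwann cell myelination, was at 120 CPM in NC-Foxc2-/- and 79.0 CPM in control Schwann cell-like cells, a ratio of 1.52 (1.19 to 1.97), and at 13.5 and 8.55 CPM over all cells. Egr3 was at 18.7 CPM in NC-Foxc2-/- and 12.6 CPM in control, and was called higher in corneal epithelial-like cells, at 6.67 and 3.05 CPM, and in conjunctival epithelial-like cells, at 11.9 and 4.0 CPM from 9 and 59 UMIs. Summed, the EGR genes were higher by their interval in 13 of 21 classes and lower in 2.

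The NR4A genes encode nuclear receptors that act without a known hormone ligand. Nr4a3 was at 144 CPM in NC-Foxc2-/- and 62.2 CPM in control over all cells, and was called higher in 5 classes and lower in 2. Of these, macrophage-like cluster 18, lymphoid-like cells and cluster 4 had no member called higher with cells thinned to 1000 UMIs. In keratocyte-like cells it was at 163 CPM in NC-Foxc2-/- and 53.0 CPM in control, a ratio of 3.08 (2.89 to 3.28) from 5414 and 1233 UMIs. Nr4a1 and Nr4a2 were within the fold there, at ratios of 1.94 (1.78 to 2.11) and 1.86 (1.79 to 1.94). Meshwork cells had other values. Nr4a2 was at 424 CPM in NC-Foxc2-/- and 871 CPM in control TM-3 cells, a ratio of 0.487 (0.466 to 0.509), and at 720 and 1432 CPM in uveal meshwork, a ratio of 0.503. Nr4a3 in TM-3 was at 94.9 CPM in NC-Foxc2-/- and 108 CPM in control, a ratio of 0.877. In pericyte-like cells, where Nr4a1 and Nr4a3 were highest, Nr4a3 was at 649 CPM in NC-Foxc2-/- and 337 CPM in control, and Nr4a1 at 645 and 508 CPM. Nr4a1 was at 148 CPM in NC-Foxc2-/- and 107 CPM in control over all cells, and Nr4a2 at 278 and 262 CPM.

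Klf2 and Klf4, the flow-induced factors, and Klf6 were highest in different classes. Klf2 was at 106 CPM in both libraries over all cells, and its interval was below 1 in 11 of 20 classes. In SC and lymphatic ECs, its highest class, it was at 753 CPM in NC-Foxc2-/- and 1390 CPM in control, a ratio of 0.542 (0.451 to 0.646), and in blood ECs the ratio was 0.773. Its ratio of 6.52 in rod-like cells rests on 61 NC-Foxc2-/- and 4 control UMIs, with an interval of 2.42 to 24.7. Klf4 was at 404 CPM in NC-Foxc2-/- and 580 CPM in control over all cells, and at 723 and 1349 CPM in conjunctival epithelial-like cells. Klf6 was at 384 CPM in NC-Foxc2-/- and 414 CPM in control, with ratios of 1.64 in keratocyte-like cells and 0.670 in TM-3. Myc, a growth-promoting factor, was at 121 CPM in NC-Foxc2-/- and 83.5 CPM in control, and at 203 and 96.0 CPM in fibroblasts, a ratio of 2.11 (1.87 to 2.40), whereas in TM-3, its highest class, it was at 224 and 323 CPM. Csrnp1, a nuclear protein rich in cysteine and serine, was at 92.7 CPM in NC-Foxc2-/- and 88.3 CPM in control.

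Of the DUSP phosphatases, Dusp1 was lower by its interval in 15 of 21 classes and called in none, at 256 CPM in NC-Foxc2-/- and 362 CPM in control over all cells. It was at 256 CPM in NC-Foxc2-/- and 511 CPM in control uveal meshwork, and at 283 and 510 CPM in pericyte-like cells. Dusp2, which acts in the nucleus and is best known from immune cells, was highest in macrophage-like cluster 9, at 292 CPM in NC-Foxc2-/- and 220 CPM in control. In TM-1 it was at 29.5 CPM in NC-Foxc2-/- and 8.64 CPM in control, a ratio of 3.41 (2.24 to 5.29), and it was the only member past the fold in that class, where 2.24% of all genes were called higher and 1.7% lower. No TM-1 member was called without the 3 deepest cells of each library, with cells thinned to 1000 UMIs, or by the mean of per-cell shares. Dusp5, a nuclear ERK phosphatase, was at 79.2 CPM in NC-Foxc2-/- and 114 CPM in control over all cells, but at 68.5 and 24.4 CPM in pericyte-like cells. Dusp6, a cytoplasmic ERK phosphatase, was at 25.0 CPM in NC-Foxc2-/- and 38.7 CPM in control, with the interval spanning 1 in most classes.

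Zfp36 was the member with the broadest shift. It was at 221 CPM in NC-Foxc2-/- and 128 CPM in control over all cells, its ratio was above 1 in all 21 classes measured, with a lowest value of 1.21 in pericyte-like cells, and its interval was above 1 in 20 of them. The median ratio was 1.96, above that of 99.6% of the genes measured in at least 15 classes. Zfp36 was at 1214 CPM in NC-Foxc2-/- and 654 CPM in control TM-1 cells, at 347 and 143 CPM in fibroblasts, and at 703 and 393 CPM in macrophage-like cluster 9. It passed the fold in 9 classes, of which 2 are of NC origin, fibroblasts and Schwann cell-like cells. The median over classes of NC origin was 1.86 and over classes of other origin 2.02. Over all genes, 3.22% had their interval above 1 in at least 80% of classes, and Zfp36 was the only member to do so. Its paralogues Zfp36l1 and Zfp36l2, named after their values were seen, were above 1 by their interval in 19 and 17 of 19 classes, with median ratios of 1.44 and 1.48.

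Zfp36 was also present in more cells. With each cell thinned to 1000 UMIs, 22.2% of 952 NC-Foxc2-/- and 11.1% of 431 control fibroblasts held a Zfp36 UMI, leaving out 10 and 2 shallower cells, against 52.0% and 40.6% before thinning. In erythrocyte-like cells the thinned share was 0.341% in NC-Foxc2-/- and 0.112% in control. Haemoglobin made up 94.7% and 95.6% of UMIs there, so few of the 1000 drawn UMIs could come from other genes. Shares in that class therefore cannot serve as a background for other classes. For Jund the thinned shares in TM-3 were 63.0% in NC-Foxc2-/- and 78.5% in control, with 95.1% and 98.5% before thinning and 1.71% and 5.03% in thinned erythrocyte-like cells.

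**Figure D4:**
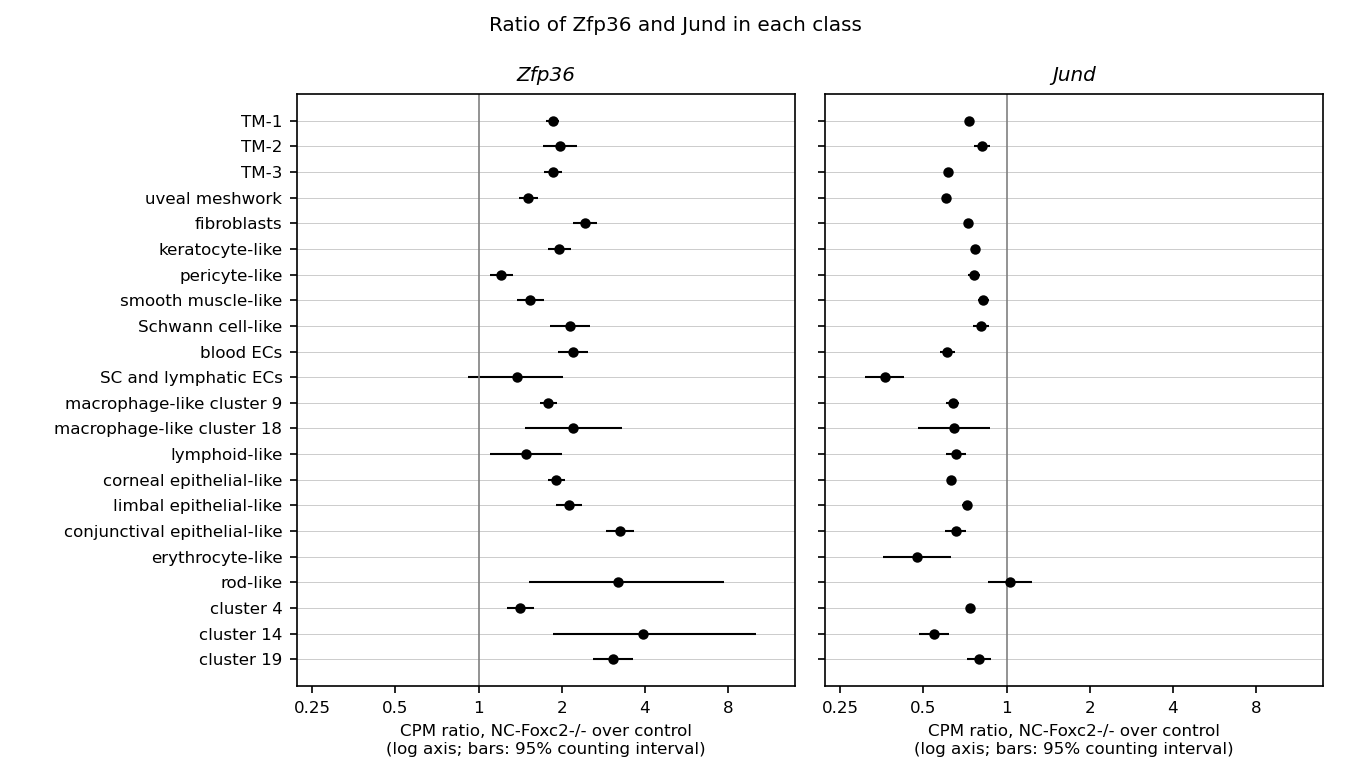
CPM ratio NC-Foxc2-/- over control of Zfp36 (left) and Jund (right) in each class, on a log axis with 95% counting intervals. Zfp36 lies between 1.21 and 3.96, and Jund between 0.363 and 1.03.

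The remaining feedback and stress genes were split by class. Socs3 was at 172 CPM in NC-Foxc2-/- and 143 CPM in control, with ratios of 1.72 in TM-3 and 0.623 in Schwann cell-like cells. Btg2, an antiproliferative gene, was at 229 CPM in NC-Foxc2-/- and 219 CPM in control. Gadd45b, a growth arrest gene that activates stress kinases, was at 532 CPM in NC-Foxc2-/- and 548 CPM in control, with the interval below 1 in 13 of 21 classes, but at ratios of 1.64 in blood ECs and 2.41 in conjunctival epithelial-like cells. In pericyte-like cells, where both GADD45 genes were highest, Gadd45b was at 3625 CPM in NC-Foxc2-/- and 4870 CPM in control, and Gadd45g at 2631 and 3358 CPM. Gadd45g over all cells was at 313 CPM in NC-Foxc2-/- and 255 CPM in control.

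Ier3, a gene linked to survival under stress, was at 2085 CPM in NC-Foxc2-/- and 2300 CPM in control over all cells. Its meshwork levels were lower: 1526 CPM in NC-Foxc2-/- and 2932 CPM in control in TM-1, a ratio of 0.520, and 2317 and 4406 CPM in TM-3, a ratio of 0.526 (0.516 to 0.536), while fibroblasts were at 1.03. Ier2 was at 259 CPM in NC-Foxc2-/- and 314 CPM in control, with the interval below 1 in 15 of 21 classes. Ier5 was at 306 CPM in NC-Foxc2-/- and 248 CPM in control, with the interval above 1 in 9 of 21. Rhob, a small GTPase of endosomes and actin dynamics, was at 87.2 CPM in NC-Foxc2-/- and 118 CPM in control, with the interval below 1 in 14 of 19 classes, and at 677 and 1175 CPM in blood ECs.

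In TM-3, 2 of 33 members were called lower, Atf3 and Nr4a2, where 2.29% of all genes were, and none was called higher, where 3.64% of all genes were. With rebuilt clusters in place of the study's cell lists no TM-3 member was called lower. In fibroblasts, 2 of 33 were called higher, Zfp36 and Myc, where 4.84% of all genes were, and none lower, where 6.09% were. The fibroblast count was 1 with rebuilt clusters and 1 by the mean of per-cell shares. In keratocyte-like cells Nr4a3 was the only member called, where 2.24% of all genes were called higher and 1.03% lower. In pericyte-like cells Dusp5, Klf2 and Fosb were called higher, 3 of 32 members, where 5.61% of all genes were, and none lower, where 3.63% were. That count was 1 after median-ratio scaling, 1 among cells with at most 5% mitochondrial UMIs and 1 at resolution 0.4. Klf2 there was at 416 CPM in NC-Foxc2-/- and 199 CPM in control, and Fosb at 653 and 321 CPM. These class counts are small, and most members of the meshwork stood within the fold in either direction.

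Within each main class the members with the highest and lowest ratios were partly the same genes. In TM-1 the ratio was lowest for Ier3, for Gadd45b at 1380 CPM in NC-Foxc2-/- and 2376 CPM in control, and for Nr4a2 at 576 and 986 CPM. After Dusp2 and Zfp36 the third highest ratio there was that of Egr3, at 69.8 CPM in NC-Foxc2-/- and 52.1 CPM in control. In TM-2 the lowest were Rhob at 56.7 CPM in NC-Foxc2-/- and 113 CPM in control, Jun at 411 and 749 CPM, and Ier3 at 1726 and 2555 CPM. The highest in TM-2 were Zfp36 at 563 CPM in NC-Foxc2-/- and 286 CPM in control, Fosb at 854 and 442 CPM, and Nr4a3 at 281 and 173 CPM. TM-3 had Zfp36 at 285 CPM in NC-Foxc2-/- and 154 CPM in control, Socs3 at 166 and 97.0 CPM, and Egr2 at 27.1 and 17.6 CPM as its highest. Nr4a2 was among the 3 lowest and Zfp36 among the 3 highest in TM-1, TM-3 and uveal meshwork alike. In uveal meshwork Zfp36 was at 346 CPM in NC-Foxc2-/- and 229 CPM in control, Dusp5 at 105 and 76.2 CPM, and Myc at 112.9 and 84.97 CPM.

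In keratocyte-like cells the lowest ratios were those of Dusp2 at 3.11 CPM in NC-Foxc2-/- and 4.73 CPM in control, Klf2 at 81.1 and 110.3 CPM, and Jund. Zfp36 was at 45.9 CPM in NC-Foxc2-/- and 23.4 CPM in control, and Nr4a1 at 63.6 and 32.9 CPM. In fibroblasts the lowest were Dusp1 at 492 CPM in NC-Foxc2-/- and 725 CPM in control, Jund at 1078 and 1484 CPM, and Junb at 1309 and 1764 CPM, and Egr3 was the third highest at 44.1 and 22.9 CPM. Dusp1 was also the lowest member in uveal meshwork, and Jund was among the 3 lowest in keratocyte-like cells, fibroblasts and uveal meshwork but not in TM-1, TM-2 or TM-3. In blood ECs Jund was at 1293 CPM in NC-Foxc2-/- and 2116 CPM in control, Dusp6 at 239 and 337 CPM, and Egr3 at 36.2 and 18.2 CPM, just inside the fold. In macrophage-like cluster 9 Jun was at 305 CPM in NC-Foxc2-/- and 584 CPM in control, Egr3 at 7.95 and 13.4 CPM, Nr4a3 at 314 and 192 CPM, and Socs3 at 526 and 382 CPM. In macrophage-like cluster 18 Ier2 was at 211 CPM in NC-Foxc2-/- and 459 CPM in control, Ier3 at 1218 and 2353 CPM, and Egr1 at 366 and 189 CPM.

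The SC and lymphatic ECs had the largest count of lower members among the 22 classes. Of 28 members with 50 UMIs, 11 were called lower, where 5.21% of all genes were, and none was called higher, where 4.44% were. The class held only 23 NC-Foxc2-/- cells and 84 control cells. Of the transcription factors, Jund was at 866 CPM in NC-Foxc2-/- and 2384 CPM in control, a ratio of 0.363 (0.307 to 0.427). Jun was at 1022 CPM in NC-Foxc2-/- and 2695 CPM in control, Junb at 855 and 2083 CPM, and Fos at 280 and 739 CPM. These were 4 of the 9 AP-1 members. Of the others, Atf3 was at 667 CPM in NC-Foxc2-/- and 1073 CPM in control, a ratio of 0.622 within the fold, and the intervals of Fosl1, Fosl2 and Maff spanned 1. Nr4a2 was at 64.6 CPM in NC-Foxc2-/- and 144 CPM in control. Of the signalling and feedback genes, Ier3 was at 312 CPM in NC-Foxc2-/- and 912 CPM in control, Rhob at 420 and 1061 CPM, and Socs3 at 145 and 339 CPM. Gadd45g was at 495 CPM in NC-Foxc2-/- and 1042 CPM in control, and Btg2 at 172 and 354 CPM. Dusp2 had the lowest ratio, 0.219, from 7 NC-Foxc2-/- and 145 control UMIs. Fosb went the other way, at 468 CPM in NC-Foxc2-/- and 273 CPM in control, a ratio of 1.71 (1.32 to 2.20), and the Zfp36 interval spanned 1 at a ratio of 1.38.

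Per cell, the 33 genes took a median of 0.821% of UMIs in the 23 NC-Foxc2-/- SC and lymphatic ECs (range 0.401% to 3.03%) and 1.71% in the 84 control cells (range 0.302% to 6.01%), so the ranges overlapped. The 3 deepest cells held 35.64% of the NC-Foxc2-/- UMIs and 15.05% of the control UMIs. Without those 3 cells in each library the summed ratio was 0.606, and 10 members were called lower, 9 of them among the 11 above, and 1 was called higher. With cells thinned to 1000 UMIs the ratio was 0.521 and 6 members were called lower, 5 of them among the 11, with fewer UMIs behind each gene. Some marker levels in the class also differed. Lyve1, a lymphatic marker, was at 10.8 CPM in NC-Foxc2-/- and 163 CPM in control, from 2 and 137 UMIs, while Prox1, the master factor of lymphatic and SC identity, was at 285 and 245 CPM, and Pecam1, a pan-endothelial adhesion gene, at 769 and 544 CPM. The Lyve1 UMIs came from only 1 of the 23 NC-Foxc2-/- cells and 4 of the 84 control cells. Among the 22 and 80 cells with no Lyve1 UMI the summed level was 10257.1 CPM in NC-Foxc2-/- and 19384.0 CPM in control. That was a ratio of 0.529, and the same 11 members were called lower. So few cells were left out that these values cannot show what part lymphatic cells have in the ratio. The haemoglobin gene Hbb-bs was at 69.9 CPM in NC-Foxc2-/- and 8560 CPM in control in this class, and the summed ratio over totals without mitochondrial, haemoglobin and ribosomal protein genes was 0.531.

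Blood ECs of the same libraries did not share this pattern. Zfp36 was the only one of 32 members called higher, at 573 CPM in NC-Foxc2-/- and 261 CPM in control, where 3.33% of all genes were called higher, and none was called lower, where 3.53% were. Fos was at 926 CPM in NC-Foxc2-/- and 726 CPM in control blood ECs, a ratio of 1.27 (1.17 to 1.39), against 0.379 in SC and lymphatic ECs. Gadd45g was at 880 CPM in NC-Foxc2-/- and 489 CPM in control blood ECs, a ratio of 1.80, against 0.475 in SC and lymphatic ECs. Jund and Rhob were lower in both classes, at 0.611 and 0.576 in blood ECs. The heat shock gene Hspa1a was at 6331 CPM in NC-Foxc2-/- and 1780 CPM in control blood ECs, but at 3906 and 5028 CPM in SC and lymphatic ECs. Its part in these results was not tested, and neither was the difference between the endothelial classes.

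**Figure D5:**
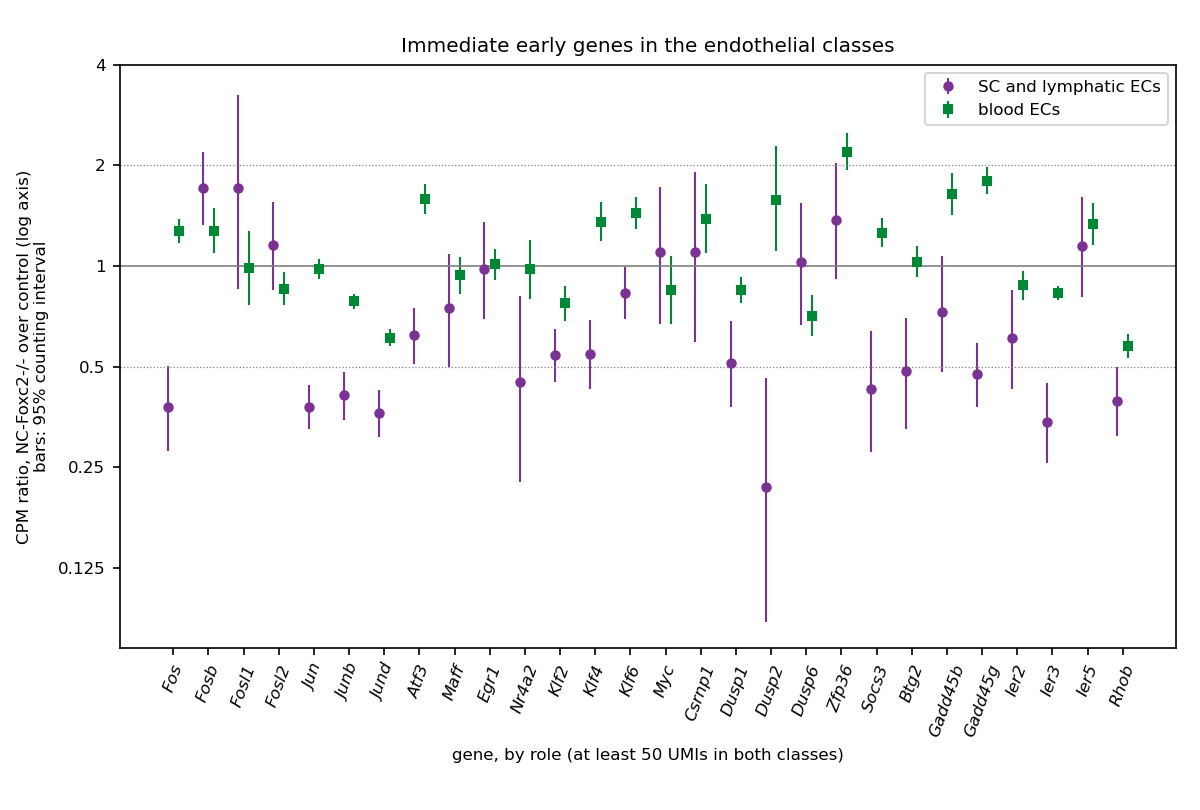
CPM ratio NC-Foxc2-/- over control of the members with at least 50 UMIs in both endothelial classes, on a log axis with 95% counting intervals. In SC and lymphatic ECs 11 members lie at or below 0.5, counting all 28 measured there, and Fos is at 0.379 against 1.27 in blood ECs.

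The smaller or unnamed classes gave the rest of the called pairs. In conjunctival epithelial-like cells, 34 NC-Foxc2-/- and 516 control cells, 6 of 31 members were called higher, where 4.83% of all genes were, and 1 was called lower, where 14.1% were. Zfp36 led there at 447 CPM in NC-Foxc2-/- and 137 CPM in control, Gadd45b was at 304 and 126 CPM, and Btg2 at 427 and 201 CPM. The called-lower member was Nr4a3, from 1 NC-Foxc2-/- and 92 control UMIs, with an interval of 0.00532 to 1.21 that spans 1. In rod-like cells 4 of 24 members were called higher, Zfp36, Maff, Klf2 and Atf3, where 9.96% of all genes were, and 1 lower, Fosl1, where 8.46% were. The count of higher members was 1 with thinned cells and 10 by the mean of per-cell shares.

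Cluster 14, a shallow cluster with a median of 1101 UMIs in NC-Foxc2-/- and 812 UMIs in control cells, had 9 of 29 members called higher, where 16.8% of all genes were, and none lower, where 4.33% were. The count of higher members was 0 at a cluster resolution of 0.4 and 2 with cells thinned to 1000 UMIs, and 3 members were called lower when all cells were placed by rebuilt clusters. Cluster 19, led by the pigment genes Dct and Pmel together with Ttr and Rlbp1, had 56 NC-Foxc2-/- and 177 control cells. There 4 of 31 members were called higher, Fos, Nr4a1, Klf2 and Zfp36, where 6.91% of all genes were, and 5 lower, where 11.8% were. Fos was at 4235 CPM in NC-Foxc2-/- and 1547 CPM in control cluster 19 cells, a ratio of 2.74 (2.57 to 2.92), and Dusp2, Fosl1, Ier5, Nr4a2 and Nr4a3 made up the lower calls, none of which held with thinned cells. In macrophage-like cluster 18, also shallow, 2 of 16 members were called higher, Nr4a3 and Zfp36, where 5.64% of all genes were, and 2 lower, Fos and Ier2, where 7.08% were. No member of that cluster was called higher with thinned cells or at resolution 1.2. Fos was at 252 CPM in NC-Foxc2-/- and 600 CPM in control there, and at 497 and 932 CPM in the deeper macrophage-like cluster 9, a ratio of 0.534.

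Across classes, the levels of the members went together to different degrees, given as a description over 42 points (21 classes in each library, without erythrocyte-like cells) that share depth and the other members in their totals. On the log2 scale Junb and Ier2 had the highest Pearson r, 0.874, followed by Fosb with Maff at 0.847 and Fosb with Egr1 at 0.840. Csrnp1 had the highest median r with the other members, 0.675, and Ier3 the lowest, -0.00418. The class pattern of each member was similar in both libraries, with r over 21 classes from 0.599 for Egr2 to 0.984 for Dusp6.

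By the pattern of the ratio over the 22 classes, the non-members most like the summed 33 genes were Cd9, a tetraspanin (r = 0.745), Hba-a1 (0.654), Hbb-bs (0.648) and Hbb-bt (0.629), which encode haemoglobin chains, and Phlda1 (0.602), out of 276 genes with 50 UMIs in every class. The next were Nfkbia (0.542), the NF-κB inhibitor, Gpx4 (0.541), Cebpb (0.525), Glul (0.474) and AY036118 (0.420). These genes share libraries and class totals with the members. The part of haemoglobin RNA in the summed ratios was not tested beyond the totals without it.

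Related genes outside the 33 gave a background for the members. Of 42 further immediate and early response genes, 12.3% of 737 pairs were called higher and 2.71% lower, with a median ratio of 1.11, from Il6 at 4.37, a cytokine, and Tnfaip3 at 2.16, a brake on NF-κB, to Rgs2 at 0.737 and Phlda1 at 0.636. For the members 5.86% of pairs were called higher and 4.17% lower, and the median ratio of pairs was 0.975. Over all genes in the same classes the shares were 3.49% higher and 3.99% lower. Of 18 upstream factors, Srf, the factor that binds CArG boxes, had a median ratio of 1.83 and Elk4, an ETS partner of it, 1.59, with Creb1 at 0.923 and Mapk3, which encodes ERK1, at 0.829. Of the AP-1 partners outside the members, Mafk was at 1.41, Jdp2 at 1.34 and Mafg at 0.813. Heat shock and chaperone genes were called higher in 10.96% of 292 pairs and lower in 1.03%, with Hspa1a at 1.73 and Hspa1b at 1.69, but Hspa8 at 0.869 and Dnajb1 at 0.784. Housekeeping genes had a median ratio of 0.838, from Tbp at 1.71 and Ywhaz at 1.48 to Gusb at 0.685 and Actb at 0.637. Of the nuclear and mitochondrial signs, mt-Atp8 was at 1.80, mt-Nd6 at 1.76 and mt-Atp6 at 0.807, and the nuclear RNA Neat1 was at 0.512, with its interval below 1 in 16 of 21 classes. Heat shock, Malat1 and Neat1 levels thus also differed between the libraries in most classes. So did 2 sex-linked genes. Xist had a median ratio of 1.70, with its interval above 1 in 16 of 20 classes. Ddx3y had a median ratio of 0.491, with its interval below 1 in 17 of 19. The part of all these genes in the members' ratios was not tested.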

How the data were processed

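Single cells of the anterior eye segment were profiled in 1 NC-Foxc2-/- and 1 Foxc2fl/fl control library with 3′ v3.1 droplet chemistry. The deposited matrices hold UMI counts per gene and cell, which the authors made with Cell Ranger 4.0.0 on mm10, and were used as filtered by that tool. A deposited table that joins the counts of both libraries over 19217 genes was used only for cell totals and the mitochondrial share. The study's clusters were taken from the per-cell normalized values behind its violin plots, whose cells were joined to barcodes by those values (98.5 to 100% of cells in a list joined at a tolerance of 0.55 of the last digit), and none of those values is reported.

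Barcodes with at most 8% mitochondrial UMIs were kept (10872 and 10773). All kept cells were clustered with scanpy 1.11.5 and leidenalg 0.10.2 on 2322 variable genes, less the 23 members among them. The settings were 15 principal components, 25 neighbours and a resolution of 0.8, and clusters were named only from marker lists. Cells in none of the joined lists took the class of their cluster. Those in the meshwork, fibroblast and endothelial clusters were left out. Rebuilt names may differ from the study's. Doublets were called with Scrublet and kept, except 2 clusters with over 50% calls. By both steps 155 NC-Foxc2-/- and 85 control cells entered no class. UMIs were summed per class and library and divided by all UMIs of the class (CPM), with exact Poisson 95% intervals for levels and Clopper-Pearson intervals for ratios. With 1 library per group no test between groups was possible. Pairs with 50 or more UMIs in the libraries together were called when the ratio reached 2 or was no more than 0.5. The interval and calling steps were tested on simulated data. Python 3.11.15, numpy 2.4.6, scipy 1.17.1 and pandas 2.3.3 were used.

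All 33 members are named. In the main classes the 3 highest and 3 lowest ratios are given, of other lists the 2 highest and 2 lowest, and of the most similar genes 10, except items that are not reported here. The members and lists were chosen with earlier results of these data known. Of the alternatives, 12 were planned, and 8 further choices and alternatives were added after the data had been seen.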

Additional observations from a re-analysis of the deposited data

Results flagged for a closer look

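Some members were at least 2-fold higher in one class and at least 2-fold lower in another. These differences between classes were not tested, since each class has 1 library per group. Fos had ratios of 2.74 in cluster 19, 0.379 in SC and lymphatic ECs and 0.420 in macrophage-like cluster 18. Atf3 had ratios of 2.02 in rod-like cells and 0.461 in TM-3, and Ier5 of 2.13 in cluster 14 and 0.365 in cluster 19. Btg2 was at 2.12 in conjunctival epithelial-like cells, against 0.486 in SC and lymphatic ECs, and Socs3 at 2.25 in cluster 14 and 0.429 in SC and lymphatic ECs.

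Nr4a3 was at 3.53 in macrophage-like cluster 18, 3.08 in keratocyte-like cells, 2.55 in lymphoid-like cells, 2.11 in cluster 4 and 2.03 in cluster 14, but at 0.213 in conjunctival epithelial-like cells, where the interval spans 1, and 0.401 in cluster 19. Dusp2, a phosphatase best known from immune cells, was at 3.41 in TM-1, but at 0.219 in SC and lymphatic ECs, 0.325 in cluster 19, 0.412 in cluster 4 and 0.421 in corneal epithelial-like cells. The clusters 4, 14 and 19 carry no cell type name, and cluster 14 is shallow. With cells thinned to 1000 UMIs, which leaves fewer UMIs per gene, some classes lost their calls. No member was then called higher in macrophage-like cluster 18, lymphoid-like cells, cluster 4 or TM-1. None was called lower in cluster 4, cluster 19 or corneal epithelial-like cells. In cluster 14 no member was called higher at a cluster resolution of 0.4.

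A further 22 cells, named NC-Foxc2-/- ECs by the study and present in that library alone, entered no comparison. Their summed level was 19413.3 CPM (18664.7 to 20184.2), against 18191.1 CPM in control blood ECs, a pairing chosen after the values were seen and not tested.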

How the results depend on the processing

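No paired analysis was possible because each group is 1 library. The limit throughout is the single library per group. The count of pairs called higher (38) was 107 at a fold of 1.5, 25 with cells thinned to 1000 UMIs, 20 at resolution 0.4, 22 without clusters 4, 14, 19 and macrophage-like cluster 18, and 24 in classes with at least 100 cells per library. The count called lower (27) was 96 at a fold of 1.5 and 9 in classes with at least 100 cells per library, a setting that drops SC and lymphatic ECs. The median summed ratio (0.904) was 0.861 at resolution 0.4, 0.875 with rebuilt clusters for all cells and 0.878 with at least 100 cells per library. The number of classes above 1 (7) was 4 at resolution 0.4 and 4 with at least 100 cells. The other 48 of 60 summary values stayed within 1.5 times for counts, which includes 18 lower pairs with thinned cells and 19 with rebuilt clusters or without those 4 classes, and between 0.880 and 0.931 for the median. Zfp36 stayed above 1 in every class measured under all 15 alternatives, with a median ratio of 1.86 to 1.97, and the Jund median ran from 0.664 to 0.730. Medians of single members crossed 1 under some alternatives for Gadd45g (7 of 15), Dusp6 (3) and Fosl1, Atf3, Dusp5 and Klf6 (1 each), and that of Nr4a3 (1.61) was 1.05 without those 4 classes. The SC and lymphatic ECs ran from 0.521 to 0.606. Sums that crossed 1 under some alternative were those of TM-2, keratocyte-like, limbal epithelial-like, erythrocyte-like and rod-like cells (0.764 to 1.55) and cluster 14 (0.848 to 1.18). The cause of these moves was not tested.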

Other observations

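Barcodes with over 8% mitochondrial UMIs, which were left out above, carried the 33 genes at 9603 CPM in NC-Foxc2-/- (784 barcodes) and 15560.4 CPM in control (512 barcodes). Fos in them was at 534 CPM in NC-Foxc2-/- and 1345 CPM in control. Corneal endothelial-like cells, too few in NC-Foxc2-/- to compare, were at 4582 CPM (9 cells) in that library and 7717 CPM (170 cells) in control.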
